A study of Mus musculus with 2 samples.

Results

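The cells described here come from a myeloid sort gate of the liver and carried transcripts of genes switched on by interferon. A cell was chosen when it had a count for at least 4 of 6 marker genes, *Cxcl9*, *Cxcl10*, *Gbp2*, *Gbp5*, *Serpina3g* and *Tgtp1*, and when *Cxcl9* or *Cxcl10* was among them. Cells with any count of *Cd209a*, a dendritic cell lectin, were not taken, nor were cells with counts for more than 2 of the mature dendritic cell genes *Ccr7*, *Fscn1* and *Cacnb3*. Of 15384 cells with at most 25% mitochondrial counts, 306 met these conditions (1.99%, 95% Clopper-Pearson interval 1.77 to 2.22). They are called members from here on, and the counts of the genes just named chose them, so their levels describe cells chosen by those counts.

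Interferon γ is made mainly by T cells and NK cells and binds the receptor formed by *Ifngr1* and *Ifngr2*. Its signal runs through Janus kinases to GAS elements of target genes and induces the transcription factor IRF1, the guanylate-binding proteins, the immunity-related GTPases and the chemokines CXCL9, CXCL10 and CXCL11, which attract CXCR3-bearing lymphocytes. Type I interferons act through *Ifnar1* and *Ifnar2* on a complex with STAT2 and IRF9 that binds ISRE elements and induces antiviral genes such as *Rsad2*, *Isg15* and the *Ifit* family. The programmes overlap, and in the liver both resident Kupffer cells and incoming Ly6C hi monocytes can respond.

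The study asked how the transcription factor Egr2 shapes liver macrophages during steatohepatitis brought on by CDA-HFD, a high-fat diet made from amino acids and lacking choline. Liver cells sorted as CD45.2+CD11b+ and negative for the lineage markers CD90.2, B220, NK1.1 and SiglecF came from 4 mice, 1 per group: a normal diet (ND) *Egr2* fl/fl mouse, an ND *Lyz2* Cre/+.*Egr2* fl/fl mouse, a CDA-HFD *Egr2* fl/fl mouse and a CDA-HFD *Lyz2* Cre/+.*Egr2* fl/fl mouse. All carried the floxed *Egr2* allele, and the Cre driven by *Lyz2* acts in monocytes, macrophages and neutrophils. The labels give no age, and they give 3000, 3000, 9000 and 9000 cells loaded. The mice were tagged with hashtags and pooled in 1 capture, so all barcodes come from 1 library, and each barcode used in the comparisons was assigned to 1 mouse. Series of 4 values stand in this order of mice. The deposited counts summed to 32.0, 27.8, 85.2 and 90.1 in units of 1000000 counts. With 1 mouse per group no difference between groups was tested, mouse and group cannot be told apart, and every interval covers counting error only.

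*Egr2* itself, the floxed gene, stood at 13.3, 5.85, 49.4 and 18.2 CPM (counts scaled to a total of 1000000) over all cells of the 4 mice. In the members it stood at 19.5, 1.06, 42.8 and 11.4 CPM, with a count in 26, 1, 15 and 3 of them. It was lower in the Cre mouse of each diet but not at 0. A 3′ tag that lies outside the deleted stretch would still be counted, so these levels do not check the deletion.

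The 4 mice differed in how many members they held. The ND *Egr2* fl/fl mouse had 166 among 1723 cells, 9.63% (8.28 to 11.1). The ND *Lyz2* Cre/+.*Egr2* fl/fl mouse had 39 among 1590, 2.45% (1.75 to 3.34). Under CDA-HFD the *Egr2* fl/fl mouse had 62 among 5885, 1.05% (0.809 to 1.35), and the *Lyz2* Cre/+.*Egr2* fl/fl mouse had 39 among 6186, 0.630% (0.449 to 0.861). The ND *Egr2* fl/fl mouse thus gave 54.2% of all members from 11.2% of all cells.

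Within ND, the share was 7.18 percentage points higher in the *Egr2* fl/fl mouse than in the Cre mouse (5.57 to 8.83), a ratio of 3.93 (2.76 to 5.72). Within CDA-HFD the same difference was 0.423 points (0.0869 to 0.770), a ratio of 1.67 (1.1 to 2.56). Between diets, the ratio of ND to CDA-HFD was 9.14 (6.79 to 12.4) among *Egr2* fl/fl mice and 3.89 (2.43 to 6.23) among Cre mice. The order of the mice followed both diet and genotype, and the ND *Egr2* fl/fl mouse stood apart from the other 3.

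Cells with more counts pass a rule of this kind more easily. The members had median totals of 21463.5, 21693, 16576.5 and 15151 counts, against 15925, 15600, 13135 and 13470 in the other cells of the same mice. When each cell was thinned to 5000 counts, which left out 176, 239, 991 and 829 cells with fewer, 5.56% (4.47 to 6.82), 1.78% (1.14 to 2.63), 0.715% (0.499 to 0.993) and 0.373% (0.228 to 0.576) passed. The same cells unthinned gave 10.5%, 2.89%, 1.23% and 0.709%. The order of the mice was the same on both scales. The own hashtag made up a median of 94.0%, 94.4%, 93.1% and 95.01% of a member's hashtag counts, against 93.0%, 92.8%, 93.6% and 94.2% in the other cells.

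**Figure D1:**
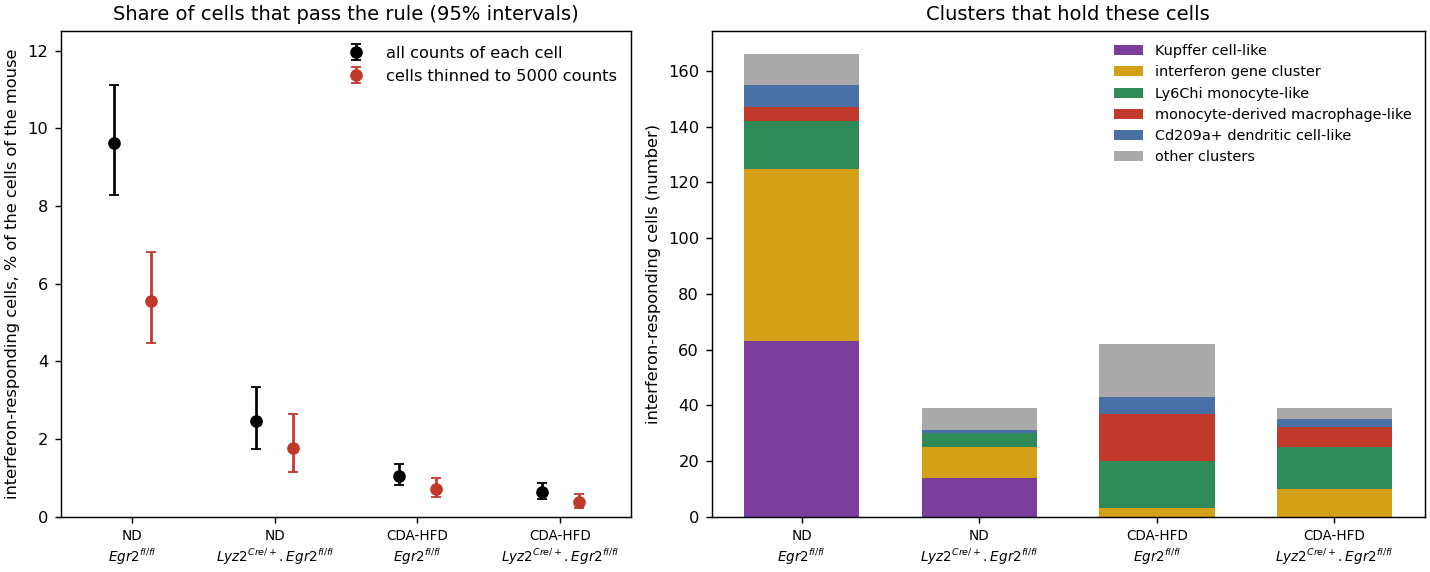
Left, percent of each mouse's cells that met the interferon rule, with 95% Clopper-Pearson intervals, from all counts (black) and from cells thinned to 5000 counts (red). Right, number of each mouse's members that fell in each cell class (stacked bars, 1 bar per mouse). fl/fl stands for *Egr2* fl/fl and Cre for *Lyz2* Cre/+.*Egr2* fl/fl, and the ND fl/fl mouse is highest on the left at 9.63%.

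Members differed in how many markers they held. Exactly 4 of the 6 markers were present in 139 members, 5 in 100 and all 6 in 67. *Cxcl9* and *Cxcl10* were both present in 132 members, *Cxcl9* alone in 83 and *Cxcl10* alone in 91. Just outside, 205 cells had 3 markers and met the other conditions, with a median of 15.0 summed marker counts against 25 in members with 4. A further 60 cells had at least 4 markers but neither chemokine, and 44 of them came from the ND *Egr2* fl/fl mouse. The dendritic cell conditions kept out 56 cells, 51 of them through *Cd209a*.

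A stray count can come from free RNA in the capture, which reaches every cell. Among the 73 B cell-like cells, 2.74% had a count of *Cxcl9* at a median depth of 12171 counts. The share in the same cells was 2.74% for *Cxcl10* and for *Tgtp1*, 9.59% for *Gbp5*, 15.1% for *Serpina3g* and 17.8% for *Gbp2*. In endothelial cell-like cells, at 10899.5 counts, *Cxcl9* had 23.1% and *Cxcl10* 22.4%, and whether the counts in B cell-like and endothelial cell-like cells are stray or their own cannot be told apart. In Ly6C lo monocyte-like cells, at a median depth of 7359, the share was 0.795% for *Cxcl9* and 3.58% for *Cxcl10*. In Kupffer cell-like cells, at 26290 counts, it was 6.35% and 14.2%, and in Ly6C hi monocyte-like cells, at 13162 counts, 4.38% and 13.9%. Of the members, 66.9%, 71.8%, 74.2% and 76.9% had a count of *Cxcl9*, a result of the rule itself.

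The members came from several parent types. Clusters were drawn from all cells with the interferon genes left out of the clustering genes, and were named from marker genes. Of the 306 members, 77 (25.2%) were Kupffer cell-like and 54 (17.6%) Ly6C hi monocyte-like. Another 29 (9.48%) were monocyte-derived macrophage-like and 18 (5.88%) lay in the *Cd209a*-marked dendritic cell-like cluster without a *Cd209a* count of their own. Of all cells, these classes were 8.91%, 13.8%, 19.6% and 13.5% in the order named. The remaining large group, 86 members (28.1%), lay in 1 cluster of 163 cells that no marker list of a cell type named.

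That cluster is called the interferon gene cluster here, since its leading genes were *Cxcl9*, *Ly6i*, *Cfb*, *Gbp2*, *Gm20547*, *Cnn3*, *Serpina3g*, *Procr*, *Pdcd1lg2* and *Ly6a*. It formed although the interferon lists had been left out. It held 6.73%, 0.943%, 0.153% and 0.372% of the cells of the 4 mice, and the rule took 62 of 116, 11 of 15, 3 of 9 and 10 of 23 of its cells. In the ND *Egr2* fl/fl mouse its members held monocyte transcripts, with *Ly6c2* at 1279.8 CPM and *Ccr2*, the receptor for monocyte recruitment, at 771 CPM. They also held *C1qa*, a complement gene of macrophages, at 1014 CPM, and the integrin gene *Itgax* at 220.1 CPM. *Clec4f*, a lectin of Kupffer cells, stood at 14.1 CPM there, against 7075 CPM in the Kupffer cell-like members of the same mouse.

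In the reported clustering, the classes with most members outside the interferon gene cluster had their highest share in the ND *Egr2* fl/fl mouse. The number of Ly6C hi monocyte-like members moved with the clustering, as given below. Among Kupffer cell-like cells, 63 of 664 passed in the ND *Egr2* fl/fl mouse, 9.49% (7.37 to 12.0), and 14 of 697 in the ND Cre mouse, 2.01% (1.1 to 3.35). The cluster of that name held none from the CDA-HFD *Egr2* fl/fl mouse. From the CDA-HFD Cre mouse it held 10, of which 0 passed, which allows a share of up to 30%. After thinning, 13 of 664 (1.96%, 1.05 to 3.32) and 4 of 697 (0.574%, 0.157 to 1.46) passed, and these intervals overlap.

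Among Ly6C hi monocyte-like cells, 17 of 118 passed in the ND *Egr2* fl/fl mouse, 14.4% (8.62 to 22.1), and 5 of 88 in the ND Cre mouse, 5.68% (1.87 to 12.8). Under CDA-HFD 17 of 1047 passed, 1.62% (0.949 to 2.59), and 15 of 870, 1.72% (0.968 to 2.83). The intervals of the ND mice overlapped, as did those of the CDA-HFD mice, which lay below that of the ND *Egr2* fl/fl mouse. The Ly6C hi members lay mostly in a cluster led by *Cxcl10* itself beside *Vcan*, *Gpr84* and *Clec4e*. They made up 13 of its 20 cells, 5 of 12, 15 of 450 and 12 of 371. After thinning, 16 of 118 (13.6%), 4 of 88 (4.55%), 14 of 1032 (1.36%) and 9 of 865 (1.04%, 0.477 to 1.97) of the Ly6C hi monocyte-like cells passed. The other Ly6C hi cluster, of 98, 76, 597 and 499 cells, gave 4, 0, 2 and 3 members. The members of this class depended on the clustering. With the interferon genes kept in it, 1 Ly6C hi cluster gave 0, 0, 2 and 3 members and the other 1, 1, 3 and 6. With 30 components the Ly6C hi cluster gave 5, 0, 4 and 4.

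Monocyte-derived macrophage-like cells gave 5 members of 85 cells in the ND *Egr2* fl/fl mouse, 5.88% (1.94 to 13.2), and 0 of 79 in the ND Cre mouse, which allows a share of up to 3.80%. They gave 17 of 1375 in the CDA-HFD *Egr2* fl/fl mouse, 1.24% (0.722 to 1.97), and 7 of 1478 in the CDA-HFD Cre mouse, 0.474% (0.191 to 0.973). The intervals of the *Egr2* fl/fl mice overlap narrowly, and those of the ND *Egr2* fl/fl and CDA-HFD Cre mice do not. After thinning, 3 of 80 (3.75%, 0.780 to 10.6) and 0 of 78 passed in the ND mice, the latter allowing a share of up to 3.85%. Under CDA-HFD 7 of 1374 passed then (0.509%, 0.205 to 1.05), and 0 of 1476, which allows up to 0.203%. Of the CDA-HFD members of this class, 9 and 2 lay in the cluster led by *Mmp12*, *Spp1* and *Gpnmb*, genes of lipid-associated macrophages, and 8 and 5 in the cluster led by *Tmem119*, *Olfml3* and *Pf4*. The *Cd209a*-marked dendritic cell-like cluster gave 8 of 155, 1 of 121, 6 of 924 and 3 of 870.

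The make-up of the members differed between the mice in the reported clustering. Kupffer cell-like cells were 38.0% and 35.9% of the members of the ND mice, beside 38.5% and 43.8% of all cells of these mice. Ly6C hi monocyte-like cells were 10.2% and 12.8% of the members of the ND mice and 27.4% and 38.5% of those of the CDA-HFD mice. Of all cells of the 4 mice this class was 6.85%, 5.53%, 17.8% and 14.1%, so it was a larger part of all cells under CDA-HFD as well. With the interferon genes kept, or with 30 components, fewer members of each mouse were Ly6C hi monocyte-like, as counted above. The interferon gene cluster gave 37.3%, 28.2%, 4.84% and 25.6% of the members. With the interferon genes kept in the clustering it gave 85 of 166, 15 of 39, 26 of 62 and 20 of 39. The remaining members were 11 in unnamed clusters, 7 proliferating, 7 mature dendritic cell-like, 6 neutrophil-like, 4 endothelial cell-like, 3 T or NK cell-like, 3 *Xcr1* dendritic cell-like and 1 Ly6C lo monocyte-like cell.

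Marker lists of cell types outside the sort gate were read in the members. The 8 hepatocyte markers summed to 65.6, 129.97, 45.9 and 37.1 CPM, where *Alb* adds nothing, since the deposited values hold no *Alb* count below 160 and only 3 cells have any. The 11 T and NK cell markers summed to 1077, 234, 244 and 695 CPM, mostly *Ccl5* (981.5, 232.5, 238 and 693 CPM), a chemokine that dendritic cells also express. In the ND *Egr2* fl/fl members none of the 11 was at 0, against 9, 7 and 9 at 0 in the other mice. The 6 endothelial markers summed to 59.2, 843, 105 and 19.97 CPM, with *Clec4g* of sinusoidal endothelium the most abundant in the ND Cre members at 349 CPM. All 3 T or NK cell-like members were of the ND *Egr2* fl/fl mouse, and 3 of the 4 endothelial cell-like members were of the ND Cre mouse. The part of these transcripts in the members' levels was not tested.

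Members were next compared with other cells of their own kind, to see which genes accompanied the 6 markers. For each mouse, the level expected of the members was taken from the non-members of the same clusters, weighted by the members' counts, and the ratio of observed to expected was read in each mouse. Among 6540 genes with enough counts, 22 (0.336%) were at least 2 times the expected level in each of the 4 mice and 4 (0.0612%) were at most 0.5 times. The median ratio of all genes was 0.981. In 48 members the mouse had fewer than 20 other cells in that cluster, so ratios, and counts of genes past the mark in a list, that moved by over 1.5 times without those members are given both ways, a choice made after seeing the data. Without those members 25 of 6137 genes were at least 2 times the expected level in each mouse. At most 0.5 times were 4, and the median was 0.986.

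The rule's own genes were high as a matter of choice. *Cxcl9*, which recruits CXCR3-bearing lymphocytes, stood at 1320.4, 940.5, 1480.3 and 1872 CPM in the members, and *Cxcl10* at 1151, 1076, 1259 and 1746 CPM. *Gbp2* and *Gbp5*, guanylate-binding proteins that attack vacuoles of pathogens, stood at 571, 699.5, 515 and 732 CPM and at 327, 285, 242 and 329 CPM. *Serpina3g*, a serine protease inhibitor, and *Tgtp1*, an immunity-related GTPase, stood at 406, 305, 341 and 328 CPM and at 208, 184, 114 and 127 CPM.

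Of 33 genes on the interferon γ-induced list that could be tested, 13 were at least 2 times the expected level in each mouse. The rule used 6 of them. It did not use the other 7, but they are on the same list as the genes that chose the cells and are not independent of that choice. The list's median ratio was 2.68. Without the clusters of few other cells 15 of 32 passed, beside 25 of 6137 over all genes, with a median of 2.67 for the list. Both medians and the 15 include the 6 genes of the rule, and the 27 genes tested outside the rule had a median of 2.21. This value and the others without the rule's genes were added after seeing the data.

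*Socs1*, the feedback inhibitor of Janus kinases, stood at 56.1, 35.9, 21.8 and 45.6 CPM where 10.3, 6.06, 8.92 and 3.82 were expected, a ratio of 5.20 (4.64 to 5.81). *Irgm1*, a regulator of the immunity-related GTPases, stood at 162.5, 165, 146 and 177 CPM against 76.1, 54.6, 33.4 and 28.2, a ratio of 2.68 (2.52 to 2.84). *Igtp*, of the same GTPase family, stood at 144, 109, 113 and 115.5 CPM against 53.9, 27.6, 17.9 and 29.9, a ratio of 3.18. The expected levels were highest in the ND *Egr2* fl/fl mouse for each of these 3 genes, while the members' levels of *Irgm1* lay close together. *Tgtp2*, another GTPase, had a ratio of 3.40, with 305.5, 218, 181 and 182.5 CPM in the members. *Iigp1*, which loads onto vacuoles of parasites, had a ratio of 3.53 and an uneven level of 271, 126, 66.9 and 42.8 CPM. *Cxcl11*, the remaining CXCR3 ligand, stood at 36.1, 28.5, 28.8 and 31.4 CPM, with a ratio of 3.0, or 15.3 without the clusters of few other cells, and 1 of the CDA-HFD Cre members held 81.8% of its counts there.

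The transcription factors of the pathway named here did not pass the mark in each mouse. *Irf1* stood at 451, 455, 287 and 414 CPM against 234, 187, 96.6 and 112 expected, a ratio of 2.21 (2.13 to 2.29). *Irf8*, which guides monocyte and dendritic cell fate and is itself induced by interferon γ, had a ratio of 1.73, but was level with its expectation in the ND Cre mouse, at 272 against 271 CPM. *Stat2*, a factor of type I signalling, had a ratio of 1.70, while *Irf9*, of the same complex, had 0.944, and *Stat3*, which cytokines such as interleukin 6 activate, had 1.29. Of the 16 receptor and signalling genes tested, *Socs1* alone passed the 2-fold mark in each mouse, and the list's median was 1.22.

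The receptors were not higher. *Ifngr1*, the ligand-binding chain of the interferon γ receptor, stood at 291, 247, 104 and 188 CPM where 407.5, 304, 221 and 286 were expected, a ratio of 0.693 (0.660 to 0.727), and was lower in each mouse. *Ifngr2* had a ratio of 0.990, and the type I receptor genes *Ifnar1* and *Ifnar2* had 0.787 and 0.90. *Socs3*, a feedback inhibitor of cytokine signals through STAT3, had a ratio of 2.64.

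The type I list, of which the rule used no gene, was read in the same way, and its difference from the interferon γ list was not tested. Of 38 genes tested, 0 reached 2 times the expected level in each mouse, and the median was 1.72. Without the clusters of few other cells 4 of 37 did, *Ifi211*, *Ifit1*, *Isg15* and *Mx1*, and the median was 1.92. Over all genes 25 of 6137 did in the same setting. *Isg15*, a ubiquitin-like antiviral protein, stood at 172, 414, 423 and 436 CPM against 104, 83.9, 112 and 120.0 expected, a ratio of 2.68 (2.56 to 2.81), with 1.66 in the ND *Egr2* fl/fl mouse and 3.64 to 4.94 in the others. *Mx1*, *Oasl1* and *Ifit3*, further antiviral genes, had ratios of 2.59, 2.83 and 2.18.

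*Rsad2*, which encodes the antiviral enzyme viperin, stood at 43.3, 243, 252 and 143 CPM. The expected level in the ND *Egr2* fl/fl mouse, 190.3 CPM, rested largely on the *Cxcl10*-led monocyte cluster, where that mouse had 7 cells beside its 13 members. The ratio of *Rsad2* over the 4 mice was 0.953, and 4.04 without the clusters of few other cells. In the ND *Egr2* fl/fl mouse alone it went from 0.228 to 1.46 in the same way. *Ifit2*, an antiviral RNA-binding protein, stood at 81.3, 195.5, 249 and 237 CPM, with ratios of 1.95 and 3.68. *Cmpk2*, the neighbour gene of *Rsad2*, had 0.846 and 2.65.

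**Figure D2:**
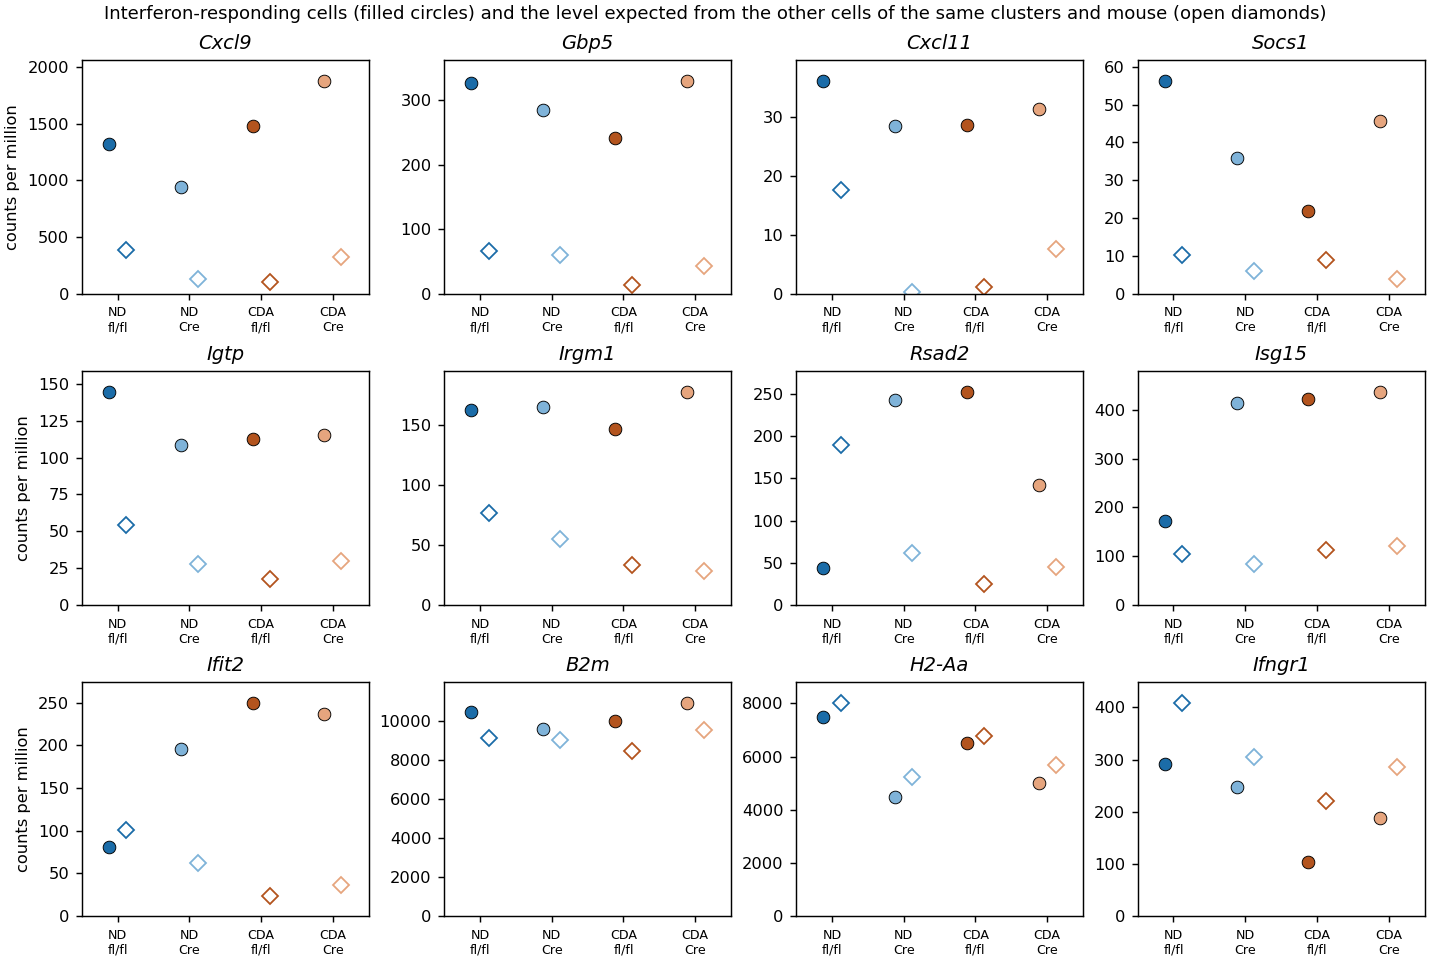
Level of 12 genes in the members of each mouse (filled circles, CPM) and the level expected from the other cells of the same clusters and mouse (open diamonds), 1 panel per gene. The mice run from left to right in the order of the text, and *Rsad2*, *Isg15* and *Ifit2* are lowest in the members of the ND *Egr2* fl/fl mouse.

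Antigen presentation genes stood closer to expectation. *B2m*, the light chain of MHC class I, stood at 10455, 9577, 9996 and 10904 CPM against 9115, 9049.6, 8449 and 9562 expected, a ratio of 1.14. Of 17 class I genes tested, 0 passed the 2-fold mark in each mouse and the median ratio was 1.28. The peptide transporter genes *Tap1* and *Tap2* had 1.62 and 1.74, and *Psme2*, a proteasome activator, 1.57. The 13 class II genes had a median of 0.977 with 0 past the mark. *H2-Aa*, a class II chain, stood at 7503, 4495, 6524 and 5021 CPM against 7999.5, 5212, 6771 and 5673, a ratio of 0.931. *Ciita*, the class II transactivator, had a ratio of 1.12. The deposited values of *H2-Aa*, *Cd74*, *Ccl5*, *Clec4f*, *C1qa* and *Retnla*, among 34 genes, hold no counts below 5, so their low levels are understated.

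NF-κB target genes were higher in part. Of 10 tested, 2 passed the mark in each mouse, *Icam1* and *Cd40*, and the median was 1.84. *Cd40* is also on the interferon γ-induced list. *Icam1*, an adhesion molecule, stood at 262, 273, 231 and 376.5 CPM against 104, 132, 114 and 129.5, a ratio of 2.39 (2.28 to 2.50). *Cd40*, a costimulatory receptor, had 2.90, with 205, 127, 264 and 287 CPM. *Tnf*, which encodes tumour necrosis factor, had 2.33, with 69.2% of its counts in 1 member in the CDA-HFD Cre mouse, while *Il1b*, the interleukin 1β gene, had 1.17.

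Of 9 genes tested on a list of checkpoint genes and amino acid enzymes, 1 passed in each mouse, with a median of 1.75, and 2 of 8 without the clusters of few other cells. *Acod1*, which makes itaconate, passed both times and stood at 101, 139.5, 147 and 170 CPM against 25.1, 34.2, 30.1 and 21.9, a ratio of 4.52 (4.21 to 4.83). *Cd274*, which encodes PD-L1, passed only without those clusters. With them it stood at 102, 143, 120 and 88.4 CPM against 44.2, 92.2, 38.2 and 51.4, a ratio of 2.17, but 1.55 and 1.72 in the ND and CDA-HFD Cre mice. Among 11 inflammasome and cell death genes 0 passed, with a median of 1.39 and the highest ratios in *Casp4*, the sensor of cytosolic lipopolysaccharide (2.31), *Zbp1*, a nucleic acid sensor (2.25), and *Mlkl*, the executor of necroptosis (2.02). Among 13 other chemokines 1 passed, *Ccl22*, a ligand of CCR4 with a ratio of 4.99, but 1 member held 34.6%, 79.8%, 42.9% and 66.8% of its counts. Without the clusters of few other cells its ratio was 2.39 and 0 of 12 passed. *Ccl24*, an eosinophil attractant, had a ratio of 2.33, with 1120.2, 929, 125 and 241 CPM.

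In 4 further lists no gene passed either mark in each mouse, and these lists are short. The medians were 0.984 for 15 immediate early genes, 1.13 for 8 heat shock genes, 0.799 for 5 glucocorticoid-induced genes and 0.816 for 7 chemokine receptors. *Cx3cr1*, the fractalkine receptor, had 0.621, and *Cxcr4*, the receptor for CXCL12, 0.639. *Tsc22d3*, induced by glucocorticoids, had 0.641.

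Outside the lists, the genes highest over expectation with counts in at least 20% of members or of other cells were *Procr*, *Cnn3*, *Ifi47*, *Gpr84*, *Gm43302*, *Sdc4*, *Cdkn1a*, *Gm12250*, *Dram1*, *Nt5c3*, *Cdc42ep2* and *Hcar2*. *Procr*, the endothelial protein C receptor, stood at 133, 50.7, 51.4 and 41.4 CPM against 35.7, 8.44, 19.6 and 25.5, a ratio of 3.48 (3.22 to 3.75). *Ifi47*, an immunity-related GTPase missing from the fixed lists, stood at 325.5, 369.8, 298 and 301 CPM against 145, 123, 42.3 and 49.7, a ratio of 2.87 (2.76 to 3.0). The other 10 lay between 2.20 and 2.89. Among genes with counts in at least 20% of members or of other cells, the lowest were *Thbs1*, *Bmf*, *Ankrd44*, *Dhrs3*, *Susd3*, *Pdcd4*, *Arrdc3*, *Tctex1d2*, *Pqlc3*, *Ramp1*, *Rogdi* and *Bmyc*. They ran from 0.384 for *Thbs1*, the thrombospondin 1 gene, to 0.523. Of the 4 genes low in each mouse, *Cd209a* was barred by the rule and *Retnla* is among the genes without low counts, which leaves *Thbs1* and *Ivd*, a leucine-degrading enzyme (0.361), named after its value was seen.

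Some genes often read as marks of classical activation were all but missing. *Nos2*, which makes nitric oxide, was counted in 5 members, all of the ND *Egr2* fl/fl mouse, at 14.4 CPM, and 1 of them held 75.0% of the counts. *Ido1*, which degrades tryptophan, had no count in any member. *Il12b*, the p40 chain gene of interleukin 12, stood at 1.79, 2.11, 207 and 1.43 CPM, and 1 of the 62 CDA-HFD *Egr2* fl/fl members held 91.4% of the counts there. *Il27*, a cytokine gene of activated macrophages, was counted in more members, 36, 10, 5 and 4, at 27.4, 38.0, 15.6 and 28.5 CPM, with a ratio of 2.24. In each CDA-HFD mouse it had 20 counts, and 1 member held 60% and 45% of them.

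The source of interferon γ was read in the other cells. *Ifng* was counted in 17, 7, 19 and 10 cells of the 4 mice, at 1.16, 0.790, 0.950 and 0.632 CPM over all cells. Most were T or NK cell-like, 15 of 71, 7 of 47, 16 of 38 and 8 of 40 of such cells. Of all members, a single one, in the ND *Egr2* fl/fl mouse, had a count of it. T and NK cells were depleted by the sort, so these numbers say little on the liver as a whole.

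The members of the ND *Egr2* fl/fl mouse were compared with those of the other 3 mice to see whether they differed in kind as well as in number. Of 6445 genes tested, 36 (0.559%) were at least 2 times as high against each of the other 3 mice, and 25 (0.388%) were at most 0.5 times. The ratios that follow are against the other 3 mice pooled. The median over all genes was 1.01 in the members and 1.05 between all other cells of the same mice, which stand as the background.

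The interferon γ-induced list, the 6 genes of the rule included, had a median ratio of 1.29 in the members and 3.32 in all other cells, and 1.335 and 2.48 without those 6. The other cells differ in class make-up between the mice: Kupffer cell-like cells, for instance, were 38.5% and 43.8% of all cells of the ND mice and 0.162% of those of the CDA-HFD Cre mouse. The part of this in the 3.32 was not tested. Within 1 class, the medians in cells that were not members were 1.56 for Kupffer cell-like cells against the ND Cre mouse, and for Ly6C hi monocyte-like cells 1.72 against the ND Cre mouse and 3.46 and 3.74 against the CDA-HFD mice. Of 33 genes, 4 were at least 2 times as high in the ND *Egr2* fl/fl members against each mouse: *Gbp2b*, *Iigp1*, *Serpina3f* and *Ubd*. *Gbp2b*, a guanylate-binding protein also known as Gbp1, stood at 288, 100.4, 10.9 and 7.13 CPM, a ratio of 7.41 (6.11 to 9.07), against 14.7 in all other cells. *Iigp1* had 3.38 (2.94 to 3.92) against 7.58, and *Serpina3f*, at 96.6, 31.7, 25.7 and 11.4 CPM, had 3.99 (3.09 to 5.22) against 12.6. Against the ND Cre mouse alone, *Gbp2b* had 2.87 in the members and 2.13 in all other cells, and *Serpina3f* 3.05 and 3.26. *Ubd*, a ubiquitin-like modifier gene, had 16.4 (8.45 to 36.3), but its counts came from 6 members and 1 held 66.8% of them.

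The type I list had a lower median in the members. It was 0.589 over 39 genes in the members and 1.14 in all other cells, and 3 genes were at most 0.5 times against each mouse. *Rsad2* had a ratio of 0.194 (0.163 to 0.230) in the members and 1.06 in all other cells. *Isg15* had 0.406 (0.369 to 0.446) against 0.711, and *Ifit2* 0.355 (0.310 to 0.406) against 1.57. *Oasl1*, an inhibitor of *Irf7* translation, stood at 25.4, 102.5, 88.0 and 45.6 CPM, a ratio of 0.307. *Isg15* was counted in 107, 31, 47 and 32 members and *Rsad2* in 38, 14, 28 and 16.

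The members of the 4 mice differed in class make-up, so the ratios were also standardized to the classes of the ND *Egr2* fl/fl members. This covered 92.8%, 58.4% and 56.0% of those members in turn, since some classes were empty in the other mice. *Rsad2* then stood at 0.245, from 0.379, 0.139 and 0.444 against the single mice, *Isg15* at 0.541, from 0.715, 0.369 and 0.805, and *Ifit2* at 0.442. *Gbp2b* stood at 3.58 and *Serpina3f* at 4.06, while *Iigp1* stood at 1.46 and was 0.860 against the CDA-HFD *Egr2* fl/fl mouse. *Ubd* stood at 3.81. Without Kupffer cell-like cells *Rsad2* had 0.251, *Isg15* 0.616, *Ifit2* 0.468, *Serpina3f* 1.97, *Iigp1* 3.13, *Ubd* 38.4 and *Gbp2b* 10.1, a choice added after seeing the data. *Rsad2* was thus lower and *Gbp2b* higher under both, with sizes that moved.

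**Figure D3:**
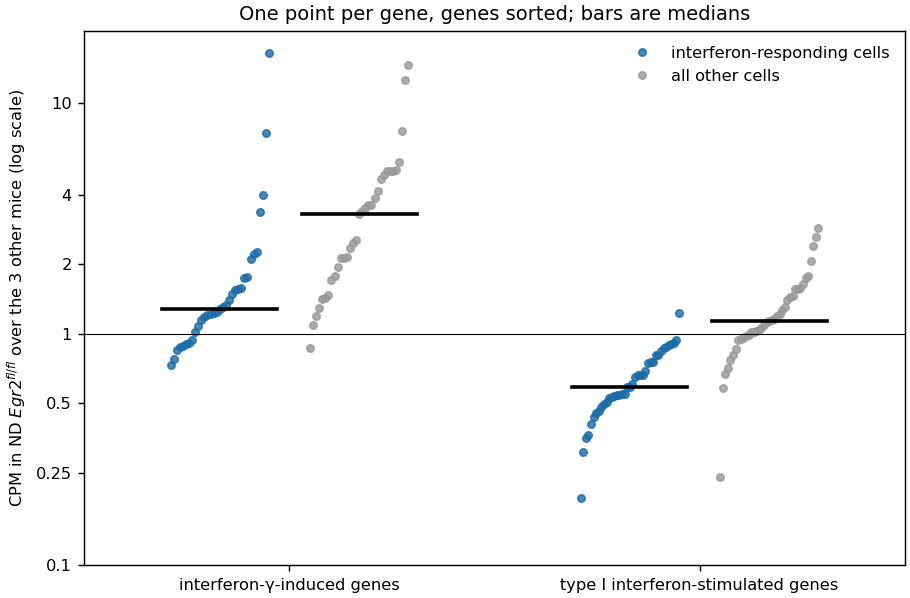
Ratio of the ND *Egr2* fl/fl mouse to the other 3 mice (log axis) for each gene of the interferon γ-induced and type I interferon-stimulated lists, 1 point per gene, bars at the medians, in members (blue) and in all other cells (grey). The medians are 1.29 and 3.32 for the first list and 0.589 and 1.14 for the second.

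In the same comparison some lists lay on the same side of 1 in members and in all other cells, and some did not. Immediate early genes had a median of 0.435 in the members and 0.382 in all other cells, and NF-κB targets 0.680 and 0.465. Kupffer cell markers had 2.77 and 5.51, and Ly6C hi monocyte markers 0.461 and 0.423. MHC class I genes had 1.11 and 1.40, MHC class II genes 1.27 and 1.19, and chemokine receptors 0.770 and 0.417. On opposite sides lay the type I list, checkpoint genes and amino acid enzymes (0.854 and 1.08), inflammasome and cell death genes (0.951 and 1.19), interferons and their inducing cytokines (0.941 and 1.63) and proliferation markers (0.833 and 1.72). So did 3 lists with 2 to 4 genes tested, the markers of endothelial cells (0.0600 and 2.04), of B cells (0.819 and 1.22) and of *Cd209a* dendritic cells (0.928 and 1.03). Of other such short lists, T or NK cell markers had 18.6 and 5.01 and mature dendritic cell markers 0.124 and 0.462.

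Whether or not on a list, the highest genes in the ND *Egr2* fl/fl members included *Cxcl13*, which recruits B cells, at 460.4, 65.5, 1.56 and 9.98 CPM, a ratio of 19.0 (15.0 to 24.5). *Marco*, a scavenger receptor of Kupffer cells, stood at 402, 222, 73.9 and 0 CPM, a ratio of 3.86, and *Cd207*, the langerin gene, at 715, 357, 62.3 and 194 CPM, a ratio of 3.78. Under CDA-HFD, 1 *Egr2* fl/fl member held 96.8% of the *Marco* counts and 1 Cre member 79.4% of the *Cd207* counts. Between them lay *Art2b*, *Slc16a9*, *Adcy4*, *Hspa4l*, *Xlr* and *C2*, from 6.58 down to 4.14, and *Cd300e* had 3.71. In all other cells the ratios from *Art2b* to *C2* were 8.27, 5.92, 5.59, 2.00, 6.02 and 6.19. Against the ND Cre mouse alone they were 1.55, 0.894, 1.00, 0.952, 1.06 and 0.948. Kupffer cell-like members held 236 of 254, 174 of 181, 276 of 281, 97 of 166, 157 of 186 and 286 of 314 of the ND *Egr2* fl/fl members' counts. In all other cells the ratios of *Cxcl13*, *Marco*, *Cd207* and *Cd300e* were 9.32, 9.55, 3.51 and 4.44. Against the ND Cre mouse alone they were 1.30, 1.72, 0.790 and 1.21. Of the ND *Egr2* fl/fl members' counts, 1795 of 1796 for *Cxcl13* and 2754 of 2789 for *Cd207* lay in Kupffer cell-like members, a class without members under CDA-HFD. Standardized to class make-up, the ratios of the same 4 genes in the members were 6.37, 1.94, 1.95 and 1.94, and without Kupffer cell-like cells 0.139, 2.87, 0.178 and 0.0748. *Marco* was counted in 37 ND *Egr2* fl/fl members, 36 of them Kupffer cell-like, so its 2.87 rested on 1 member of that mouse, with 223 counts. The lowest included *Chil3*, a chitinase-like gene of monocytes, at 55.6, 123, 588 and 1001 CPM, a ratio of 0.104, and *Trem2*, a lipid receptor of macrophages, at 33.1, 44.4, 219 and 275 CPM, a ratio of 0.188. *Atf3*, a stress-induced transcription factor, stood at 123, 202, 869 and 555 CPM, a ratio of 0.212. The heat shock genes *Hspa1a* and *Hspa1b* had 0.125 and 0.112. *Slpi*, *Fosb*, *Cxcr4*, *Stab1*, *Dpep2* and *Ifrd1* lay between 0.163 and 0.221. Against the members of the ND Cre mouse alone these had 0.802, 0.915, 0.555, 0.157, 0.901 and 0.638 in turn. *Hspa1a* and *Hspa1b* had 0.651 and 0.418 there. Against the other 3 mice pooled, the ratios in all other cells of the mouse were low as well. They were 0.157 for *Chil3* and for *Trem2*, 0.114 for *Atf3*, 0.165 for *Hspa1a* and 0.174 for *Hspa1b*. *Fosb* had 0.152, *Cxcr4* 0.147, *Slpi* 0.489 and *Stab1* 0.609. In the same order, the ratios against the ND Cre mouse alone were 1.07, 0.559, 1.03, 0.772, 0.819, 1.16, 0.821, 0.586 and 0.580. Standardized to class make-up, the ratios in the members were 0.211 for *Chil3*, 0.519 for *Trem2*, 0.257 for *Atf3*, 0.745 for *Slpi* and 0.785 for *Stab1*.

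Kupffer cell-like members could be compared within 1 class between the ND mice, with 63 and 14 members. At a clustering resolution of 2 the class split into a cluster led by *C6*, *Cxcl13* and *Clec4f*, with *Gbp2b* also among its leading genes, which held 33 and 3 of them, and a cluster led by *Marco* and *Cd209f*, which held 30 and 11. The members thus differed in make-up within the class, and the part of this in the ratios, that of *Cxcl13* among them, was not tested. This comparison was added after the data were seen, as were the Kupffer cell-like genes named in it. Of 3270 genes tested, 107 (3.27%) were at least 2 times as high in the *Egr2* fl/fl members and 74 (2.26%) at most 0.5 times. The median over all genes was 0.961. The 14 members of the Cre mouse limit each ratio.

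Part of the type I list was lower in the *Egr2* fl/fl Kupffer cell-like members. *Rsad2* stood at 32.6 against 267 CPM, a ratio of 0.122 (0.0886 to 0.166), and *Isg15* at 63.1 against 274 CPM, 0.231 (0.179 to 0.297). *Ifit2* stood at 59.0 against 272 CPM, 0.217, and *Oasl2* and *Ifit3* had 0.336 and 0.380. Of 30 type I genes tested, 8 were at most 0.5 times, and the median was 0.739. The interferon γ-induced list had 7 of 29 at least 2 times as high with a median of 1.04, the rule's genes included, and 5 of 23 with a median of 1.19 without them. *Serpina3f* stood at 143 against 14.6 CPM, 9.76 (4.67 to 24.5). In the Cre mouse 1 member held 46.1% of the *Rsad2* counts, 51.1% of those of *Isg15* and 37.7% of those of *Ifit2*.

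MHC class II genes leaned to the *Egr2* fl/fl side, with 5 of 9 at least 2 times as high and a median of 2.04. *Ciita* stood at 86.4 against 6.27 CPM, the latter from 3 counts, a ratio of 13.8 (4.63 to 67.5). *H2-Aa* stood at 6114 against 2479 CPM, 2.47. *Cxcl13* stood at 928.5 against 129.6 CPM, 7.17 (5.56 to 9.39). MHC class I genes had a median of 1.1.

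Part of this was shared by all Kupffer cell-like cells of the ND mice, 664 and 697 cells with the members included. Of 10837 genes, 51 (0.471%) were at least 2 times as high on the *Egr2* fl/fl side, 86 (0.794%) were at most 0.5 times, and the median was 0.966. The interferon γ-induced list had 10 of 31 at least 2 times as high and a median of 1.62, MHC class II 4 of 12 and 1.49, and MHC class I 0 of 17 and 1.22. Without the rule's genes the first list had 6 of 25 and a median of 1.55. The type I list had 0 of 40 past the mark in either direction and a median of 0.922.

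*Serpina3g*, a gene of the rule, stood at 97.8 against 12.3 CPM over all Kupffer cell-like cells, a ratio of 7.94 (6.89 to 9.18). *Serpina3f* stood at 48.5 against 8.40 CPM, 5.77. *Gbp2b* stood at 357.5 against 146 CPM, 2.45, *Tgtp2* had 2.52 and *Gbp5*, also of the rule, 2.29. *Irf1* had 1.67. *Ciita* stood at 67.1 against 23.1 CPM, 2.91, and *H2-Eb1*, a class II chain, at 4147 against 1716 CPM, 2.42. *Il1b* stood at 1796 against 523 CPM, 3.44. *Cd209f*, a lectin gene, was lower at 17.1 against 76.6 CPM, 0.223, and the hepatocyte transcripts *Ttr*, *Apoa2*, *Ahsg*, *Mup3* and *Serpina3k* were also lower, at 0.340 to 0.428, and their part in the other ratios was not tested. When members were left out, the 601 and 683 other Kupffer cell-like cells had medians of 1.56 for the interferon γ-induced list and 0.919 for the type I list.

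Kupffer cell-like members were last set against the other Kupffer cell-like cells of the same mouse. Of 9331 genes, 40 (0.429%) were at least 2 times as high in both ND mice and 132 (1.41%) at most 0.5 times in both. The medians over all genes were 0.954 and 0.941 in the *Egr2* fl/fl and the Cre mouse. Of 10 Kupffer cell markers 0 passed either mark in both mice, with medians of 1.04 and 0.939. *Clec4f* stood at 7075 against 7449.7 CPM and at 7147 against 7962 CPM, and *Timd4*, the TIM4 gene of resident Kupffer cells, at 820 against 672.5 and at 757 against 649.7 CPM. *Marco* had 1.87 and 2.25, with 53.4% of its counts in 1 member of the Cre mouse, *Vsig4*, a complement receptor, 0.912 and 0.763, and *Fcna*, a ficolin, 1.19 and 0.713.

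The interferon γ-induced list had 9 of 30 genes past the 2-fold mark in both mice, with medians of 1.83 and 2.24, the rule's genes included, and 3 of 24 with medians of 1.55 and 1.97 without them. NF-κB targets had 5 of 11 past the mark, with medians of 1.67 and 2.98. *Icam1* had 2.54 and 2.98. *Tnf* had 7.74 and 4.44, but 1 member held 36.8% and 86.7% of its counts.

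For some type I genes the ND mice parted. In the Cre mouse *Rsad2* stood at 267 CPM in members against 51.3 in the other Kupffer cell-like cells, a ratio of 5.22 (4.30 to 6.29). In the *Egr2* fl/fl mouse it stood at 32.6 against 39.0 CPM, 0.836 (0.635 to 1.08). *Isg15* had 4.23 and 1.14 in the same order, and *Ifit2* 3.45 and 1.09. The list's medians were 1.14 in the *Egr2* fl/fl mouse and 1.57 in the Cre mouse, with 0 of 39 genes past the mark in both. *Ciita* had 1.33 in the *Egr2* fl/fl mouse and 0.266 (0.0546 to 0.783) in the Cre mouse, again from 3 counts in the members of the latter.

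The other classes had fewer members, so their lists are given by medians alone. Those of the interferon γ-induced list include the rule's genes, by which the members were chosen, and were not taken without them. Between the Ly6C hi monocyte-like members of the *Egr2* fl/fl mice, 17 each, ND over CDA-HFD gave 1.51 for the interferon γ-induced list, 1.01 for the type I list and 0.382 for MHC class II, beside 0.985 over all genes. Against the 15 of the CDA-HFD Cre mouse the medians were 1.80, 1.41 and 0.719, beside 0.976. The Ly6C hi monocyte-like cells that were not members gave 3.46 and 3.74 for the interferon γ-induced list against the same mice, and 1.82 and 1.36 for the type I list, beside 1.03 and 1.01 over all genes. Members of the interferon gene cluster gave 1.74 and 0.803 between the ND mice, 62 and 11 members, beside 1.00, and 1.41 and 0.628 against the 10 of the CDA-HFD Cre mouse, beside 1.04.

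The promoters of the interferon γ-induced, type I and MHC class I lists were searched for the letters of the elements behind each programme. The windows run from 250 bases before to 50 after the start of each gene, from RefSeq on build GRCm38.p6, and both strands were searched. The ISRE-type letters, GAAA followed after any 2 bases by GAAA again, stood in 3.99% of 27025 genes, in 13 of the 22 interferon γ-induced genes that could be matched (59.1%), in 19 of 31 type I genes (61.3%) and in 4 of 15 MHC class I genes. The GAS-type letters TTCNNNGAA stood in 9.55% of all genes, in 10 of 22 interferon γ-induced genes (45.5%), in 3 of 31 type I genes (9.68%) and in 1 of 15 class I genes. Among the 6 markers, *Cxcl10*, *Gbp2*, *Gbp5* and *Tgtp1* held the ISRE-type letters and *Gbp5*, *Serpina3g* and *Tgtp1* the GAS-type letters. A match describes the letters and is not a binding site. Capitals mark the matches in the windows printed here, which show the markers *Cxcl10* (chr5:92348840-92349139, minus strand), *Gbp5* (chr3:142496684-142496983, plus strand) and *Tgtp1* (chr11:48992197-48992496, minus strand) beside the type I genes *Isg15* (chr4:156200769-156201068, minus strand), whose 3 matches overlap, and *Rsad2* (chr12:26456403-26456702, minus strand).
Cxcl10: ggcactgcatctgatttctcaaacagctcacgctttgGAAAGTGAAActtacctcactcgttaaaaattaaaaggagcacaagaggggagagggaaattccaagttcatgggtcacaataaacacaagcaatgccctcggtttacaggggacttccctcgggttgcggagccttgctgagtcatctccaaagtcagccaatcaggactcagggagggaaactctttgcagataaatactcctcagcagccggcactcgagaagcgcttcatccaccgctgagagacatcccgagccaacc
Gbp5: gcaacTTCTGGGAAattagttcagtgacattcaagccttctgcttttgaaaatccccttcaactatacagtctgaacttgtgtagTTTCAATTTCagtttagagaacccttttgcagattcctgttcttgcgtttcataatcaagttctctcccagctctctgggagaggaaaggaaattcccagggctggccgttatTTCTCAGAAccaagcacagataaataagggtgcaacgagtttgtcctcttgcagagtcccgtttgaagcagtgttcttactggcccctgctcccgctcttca
Tgtp1: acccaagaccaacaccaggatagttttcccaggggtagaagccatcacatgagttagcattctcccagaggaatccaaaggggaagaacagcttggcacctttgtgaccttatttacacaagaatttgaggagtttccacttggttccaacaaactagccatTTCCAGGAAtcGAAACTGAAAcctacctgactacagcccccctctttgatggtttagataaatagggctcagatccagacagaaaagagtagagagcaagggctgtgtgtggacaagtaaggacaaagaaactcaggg
Isg15: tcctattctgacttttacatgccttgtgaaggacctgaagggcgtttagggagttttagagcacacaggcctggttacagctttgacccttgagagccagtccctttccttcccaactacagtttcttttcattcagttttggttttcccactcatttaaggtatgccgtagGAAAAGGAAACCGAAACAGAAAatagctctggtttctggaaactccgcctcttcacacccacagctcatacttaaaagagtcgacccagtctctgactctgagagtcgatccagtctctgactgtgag
Rsad2: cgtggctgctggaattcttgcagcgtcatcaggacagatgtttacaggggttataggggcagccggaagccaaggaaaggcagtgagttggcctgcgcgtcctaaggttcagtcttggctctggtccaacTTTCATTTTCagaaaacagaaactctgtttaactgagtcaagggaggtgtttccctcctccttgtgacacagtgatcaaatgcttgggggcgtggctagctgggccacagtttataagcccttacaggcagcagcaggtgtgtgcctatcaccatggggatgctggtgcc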

How the data were processed

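Single-cell RNA of the 4 mice was measured with BD Rhapsody and TAS-Seq in 1 pooled capture. The authors deposited counts per gene and barcode, mapped to GRCm38, and hashtag counts per barcode; whether reads or molecules are counted is not stated. Barcodes the authors named doublets (1392, 8.29%) were left out, cells with over 25% mitochondrial counts were removed, and the hashtag columns of unused tags were not used. The members and gene lists were chosen with earlier results of these data known. Clusters came from Seurat 5.3.0 in R 4.3.3 (57 components, resolution 1, 5008 variable genes after leaving out the interferon lists), other values from Python 3.11.15 with numpy 2.4.6, pandas 2.3.3 and scipy 1.17.1. The rule for naming clusters, the comparisons within a class and the added alternatives were chosen after seeing the data.

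Levels are CPM from counts summed over cells. Ratios carry exact binomial or Poisson 95% intervals, shares Clopper-Pearson and their differences Newcombe intervals. A share of 0 carries instead the limit that 3 counts of its total allow. Genes needed at least 200 counts observed plus expected, or 100 counts in the comparisons between mice. A fold of 2 or 0.5 marked a gene, and no test was run. Named genes are those of the rule and the lists, and the 12 highest and 12 lowest genes by ratio, outside the lists for members against expectation and from all genes between mice, with counts in at least 20% of cells of a side and the same direction in each mouse with at least 20 members. Alternatives were other marker thresholds, thinning to 5000 counts (seed 1), Scrublet in scanpy 1.11.5, edgeR 4.0.16 TMM factors, other clusterings, count minimums, and leaving out classes. Plots used matplotlib 3.10.9.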

Additional observations from a re-analysis of the deposited data

Results flagged for a closer look

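Barcodes that the authors named as doublets were left out of every comparison, and the interferon rule was applied to them on its own. Of 1387 such barcodes within the mitochondrial limit, 55 passed, 3.97% (3.0 to 5.13), against 1.99% of the cells assigned to 1 mouse. They drew attention because they lie outside the barcodes the comparisons used. A doublet holds the counts of more than 1 cell, and the part of this in the share was not tested. Scrublet, run on the assigned cells and set to remove as many as the doublets within a mouse that the named ones imply, removed 26, 22, 305 and 336 cells of the 4 mice, among them 3, 0, 7 and 1 members. In the CDA-HFD *Egr2* fl/fl mouse these were 11.3% of the members and 5.18% of the cells. By its own threshold Scrublet called 29, 37, 12 and 7 cells.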

How the results depend on the processing

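Of 118 main values under an alternative, all of them shares and counts, 82 stayed within their interval or within 1.5 times the count and 36 moved. Ratios of single genes are not among them, and some crossed 1: *Rsad2* (0.953 to 4.04) and *Cmpk2* (0.846 to 2.65) without the clusters of few other cells, and *Iigp1* (3.38 pooled) against the CDA-HFD *Egr2* fl/fl mouse when standardized (0.860). List medians stayed within 1.5 times in 66 of 66. The shares of members in the 4 mice were 13.4%, 4.4%, 1.75% and 1.73% with at least 3 of 6 markers, 5.80%, 1.13%, 0.544% and 0.275% with at least 5, and 6.85%, 1.70%, 0.629% and 0.436% with at least 2 counts for each marker. Thinned to 5000 counts they were 5.56%, 0.715% and 0.373% in the ND *Egr2* fl/fl and both CDA-HFD mice. In the ND *Egr2* fl/fl mouse the share was 11.3% without the dendritic cell conditions and 6.47% without the interferon gene cluster. The settings that leave out a class, and all those of the Kupffer cell-like comparisons, were added after seeing the data.

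With the interferon genes kept in the clustering, the interferon gene cluster held 51.2% of the ND *Egr2* fl/fl members (reported 37.3%). It held 85 of 166, 15 of 39, 26 of 62 and 20 of 39 members of the 4 mice. As reported it held 62, 11, 3 and 10, so the CDA-HFD *Egr2* fl/fl share rose most. The CDA-HFD members that were Ly6C hi monocyte-like (31.7%) were then 13.9%, and 7.92% with 30 components. Of the ND *Egr2* fl/fl members, 17 were in this class as reported. With the interferon genes kept its clusters held 0 and 1 members of that mouse, and with 30 components 5. Of genes high in members over expectation (22), 57 passed by a plain ratio to all other cells, 19 of them shared. Of those low (4), 15 passed by the plain ratio, 1 with at least 500 counts and 2 without the interferon gene cluster.

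For the ND *Egr2* fl/fl members against the others, 36 genes were high and 25 low. High were 72 when standardized to class make-up (17 shared), 58 by the mean over cells (28 shared), 8 with at least 300 counts and 12 after thinning (4 shared). Low were 9 with at least 300 counts, 47 without the interferon gene cluster (16 shared) and 59 without Kupffer cell-like cells (14 shared). Between Kupffer cell-like members (107 high, 74 low), at least 300 counts left 24 and 6, and TMM factors 48 low. Over all Kupffer cell-like cells (51 high, 86 low) that minimum left 24 and 27. The count minimums test fewer genes; the cause was not tested elsewhere. No paired analysis was possible because each group had 1 mouse and nothing in the labels pairs them.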
